A study of Mus musculus with 18 samples.

Results

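The clock repressors of the Per-Cry loop comprised 8 genes, taken by symbol from a liver RNA-seq count table of 52636 gene IDs: Per1, Per2, Per3, Cry1, Cry2, Ciart, Bhlhe40 and Bhlhe41. Each symbol had 1 row, and all 8 genes passed the filter on low counts, as 13958 genes in all did. Livers of mice were taken at Zeitgeber time 8 (ZT8, hours after lights on), in 6 groups of 3 biological replicates each. BH-HF-KO and BH-HF-WT livers came from 45-week-old animals that had eaten a high-fat diet for 35 weeks from the age of 10 weeks. BH-KO, BH-WT, H-KO and H-WT livers came from 10-week-old animals. H animals carried the Hnf4atm1.1Gonz allele of Hnf4a, the gene of a hepatocyte transcription factor, with Albtm1(cre/ERT2)Mtz, a tamoxifen-dependent Cre recombinase expressed from the albumin gene. BH and BH-HF animals carried in addition the Arntltm1Weit allele of Arntl, the gene of the clock activator BMAL1. Every group, WT included, was injected intraperitoneally with tamoxifen on 5 days at 8 weeks of age, at 10 mg/mL with corn oil as the vehicle. KO and WT groups had the same strain entry, and the labels do not say what set the WT animals apart. The albumin promoter directs the Cre to hepatocytes, so other liver cells are expected to keep both target genes.

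In the mammalian clock, BMAL1 pairs with CLOCK or NPAS2 and activates genes through E-box sequences. Among those genes are the Per and Cry genes, whose proteins gather in a complex that enters the nucleus and represses the activators. CIART (also called CHRONO) binds BMAL1 and represses it separately, and BHLHE40 and BHLHE41 (DEC1 and DEC2) compete for E-boxes. REV-ERB receptors (Nr1d1 and Nr1d2) repress Arntl, Npas2, Clock and Cry1, against activation by ROR receptors. PAR bZIP factors such as DBP act at D-box sequences.

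RefSeq promoter windows (build GRCm38.p6, 250 bases before to 50 after an annotated start) were matched for 6 of the 8 genes, in 7 windows, with a pair of starts for Per1; Per2 and Bhlhe40 had none. The 250 bases before the start are printed 5′ to 3′ on the gene's own strand for the 4 genes whose transcripts differed most between BH-KO and BH-WT livers. As these 4 were picked by their change, they cannot show whether motifs go with its size. Windows of Cry2 and Per1, not printed, also held such motifs. Capitals mark the E-box CACGTG, its variant CACGTT, which reads AACGTG on the other strand, and the D-box TTATGTAA. The windows lie at chr3:95882229-95882478 for Ciart, chr6:145865421-145865670 for Bhlhe41, chr10:85185055-85185304 for Cry1 and chr4:151044666-151044915 for Per3, all on the minus strand.
Ciart: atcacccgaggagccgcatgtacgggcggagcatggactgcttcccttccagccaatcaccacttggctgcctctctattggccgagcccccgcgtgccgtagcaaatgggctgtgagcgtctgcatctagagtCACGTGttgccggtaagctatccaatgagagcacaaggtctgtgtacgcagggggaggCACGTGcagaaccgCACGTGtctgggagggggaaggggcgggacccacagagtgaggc
Bhlhe41: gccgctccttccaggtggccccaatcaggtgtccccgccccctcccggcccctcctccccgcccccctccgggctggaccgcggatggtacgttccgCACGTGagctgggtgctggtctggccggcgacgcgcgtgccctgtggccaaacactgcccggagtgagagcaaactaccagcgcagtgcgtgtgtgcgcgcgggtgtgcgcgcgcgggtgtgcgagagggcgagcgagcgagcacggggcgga
Cry1: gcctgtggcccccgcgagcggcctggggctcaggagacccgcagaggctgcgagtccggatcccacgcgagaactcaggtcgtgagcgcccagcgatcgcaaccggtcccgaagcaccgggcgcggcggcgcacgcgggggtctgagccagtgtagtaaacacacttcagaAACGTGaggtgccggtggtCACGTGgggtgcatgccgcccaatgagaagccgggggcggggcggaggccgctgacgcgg
Per3: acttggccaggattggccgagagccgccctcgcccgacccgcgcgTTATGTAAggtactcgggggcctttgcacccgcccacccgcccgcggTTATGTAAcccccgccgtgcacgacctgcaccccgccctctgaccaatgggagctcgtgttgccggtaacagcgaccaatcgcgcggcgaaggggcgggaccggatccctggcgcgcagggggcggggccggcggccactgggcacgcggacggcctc

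Both strands of each 300-base window were searched, and the same search was made in 32544 unique RefSeq promoter windows of the same length. The E-box occurred in 7.17% of those windows, at least 3 copies occurred in 0.0891%, the variant in 4.71% and the D-box in 0.931%. The Ciart window held 3 E-boxes, whose first bases lie at -116, -58 and -44 from the start. Single E-boxes lay at -153 in Bhlhe41, at -60 in Cry1 and at -166 in the first Per1 window. The variant lay at -79 in Cry1 and at -166 in Cry2. Per3 held neither, but had D-boxes at -205 and -158, and only 0.0215% of all windows held 2 or more. The REV-ERB/ROR element TAGGTCA (2.61% of all windows) and the cAMP response element TGACGTCA (1.8%) had no match in the 7 windows. The shorter TGACG, found in 20.9% of all windows, was present in Cry1, Cry2 and both Per1 windows. These matches describe letters in the windows and not bound sites.

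**Figure D1:**
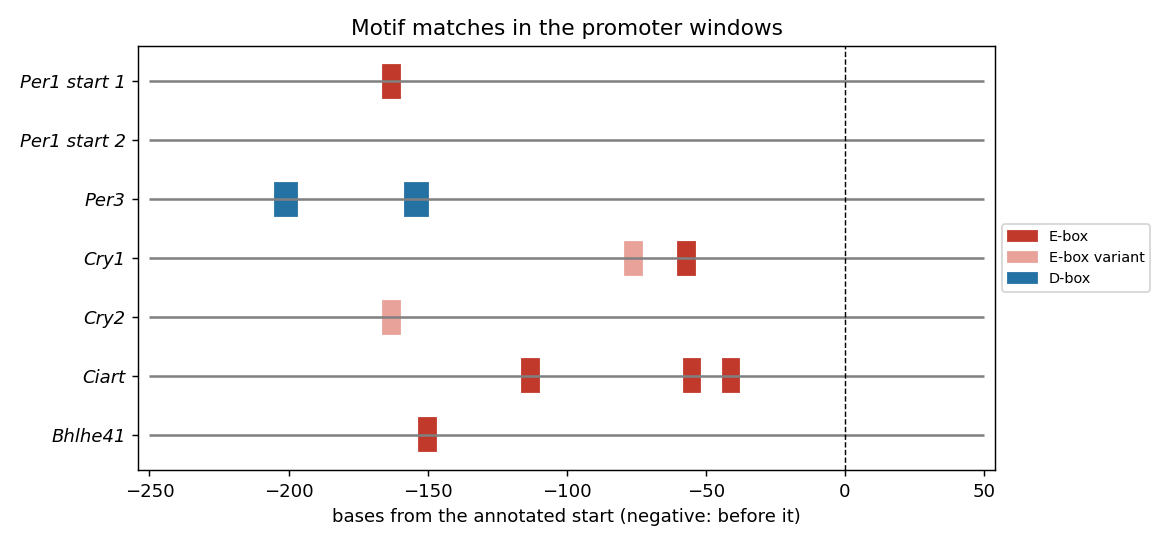
Positions of motif matches in the 7 promoter windows, in bases from the annotated start (dashed line), 1 line per window. Ciart has 3 E-boxes, Per3 has D-boxes and no E-box, and the second Per1 window has none of the 3 motifs drawn.

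Deposited counts summed to 6846471 to 9816124 per library, and 3 counts in a library corresponded to 0.264 to 0.48 CPM (counts scaled to a common effective library size), taken here as the floor. Hnf4a did not pass the test in any KO comparison under the quasi-likelihood test of edgeR, adjusted by Benjamini-Hochberg over all genes: log2 fold changes were -0.40 in BH (adjusted p = 0.164), -0.35 in H (adjusted p = 0.208) and 0.14 in BH-HF (adjusted p = 1). Hnf4a was at 495 to 867 CPM in BH-KO, where the highest library lay inside the BH-WT range of 772 to 890 CPM. Without BH-KO replicate 1, which held that highest value, the BH log2 fold change was -0.72 (adjusted p = 0.00281). Without that library and H-WT replicate 3 the H log2 fold change was -0.52 (adjusted p = 0.00471). Arntl averaged 21.3 ± 3.47 CPM in BH-KO and 0.652 ± 0.203 CPM in BH-WT livers (SD, n = 3 each; log2 fold change 5.00 ± 0.43 (SE), adjusted p = 2.13e-06 by edgeR). The BH-WT value rested on 14 counts in all, with its lowest library at the floor (0.421 CPM), so few counts set the size of the rise. In the libraries labelled BH-HF-KO Arntl averaged 1.59 ± 0.849 CPM, against 1.47 ± 0.496 CPM in BH-HF-WT. The BH-HF-KO libraries thus lacked the Arntl level of BH-KO under the same genotype label, and BH-HF-KO below names that label only. Gene-level counts do not show whether the deleted exons were read, so neither gene checks its deletion directly. BH-KO replicate 1 stood apart from the other BH-KO libraries, with 9.45% of counts from mitochondrial genes, against 3.7% and 4.17% in replicates 2 and 3. Its summed level of 8 hepatocyte markers was 76310 CPM, the highest of BH-KO (29640 to 76310 CPM, against 98410 to 126500 CPM in BH-WT). H-WT replicate 3 had 1080 CPM of Xist, the X-inactivation RNA of female cells, where no other library exceeded 3.90 CPM. It had 5.74 CPM of the Y-linked Ddx3y, where the other libraries had 115 to 185 CPM. Its levels of both genes were thus those of a female liver, and the other libraries had those of male livers. Hepatocyte marker sums were 24040 to 26540 CPM in H-KO and 97780 to 109400 CPM in H-WT. They were also separate in the high-fat-diet animals, at 64470 to 75860 CPM in BH-HF-KO and 106800 to 129700 CPM in BH-HF-WT. These sums were lower under the KO label as in the other settings, although 0 of the 8 markers, and 0% of all genes, passed the edgeR test there. Albumin, from whose gene the Cre is expressed, was the largest marker in each group, averaging 34986 CPM in BH-HF-KO and 79057 CPM in BH-HF-WT. The other BH-HF means were closer together, with Serpina1c and Pck1 higher in BH-HF-KO. In BH, 1 marker was called higher and 1 lower, where 28.6% of all genes were called. In H, 5 were called lower and 0 higher, where 34.9% were called. The part of these differences in the results below was not tested. In whole liver, fewer cells of a type and less RNA per cell cannot be told apart.

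The first comparison asked how the repressors stood in livers with the combined BH knockout label. In BH-KO livers 6 of the 8 repressors differed from BH-WT at an adjusted p under 0.05, where 28.6% of all genes tested did. Cry1 rose, and Per1, Per3, Cry2, Ciart and Bhlhe41 fell (14.3% of all genes were called higher and 14.3% lower, 2000 and 1990 genes; with upper-quartile scaling 4280 were called, 1720 of them lower). The 3 libraries of each group did not overlap for 7 of the 8 repressors, Per2 being the exception, against 34.9% of all genes. The median log2 fold change of the 8 was -0.72, against 0.03 over all genes tested, and the median size regardless of sign was 1.78, against 0.42.

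**Figure D2:**
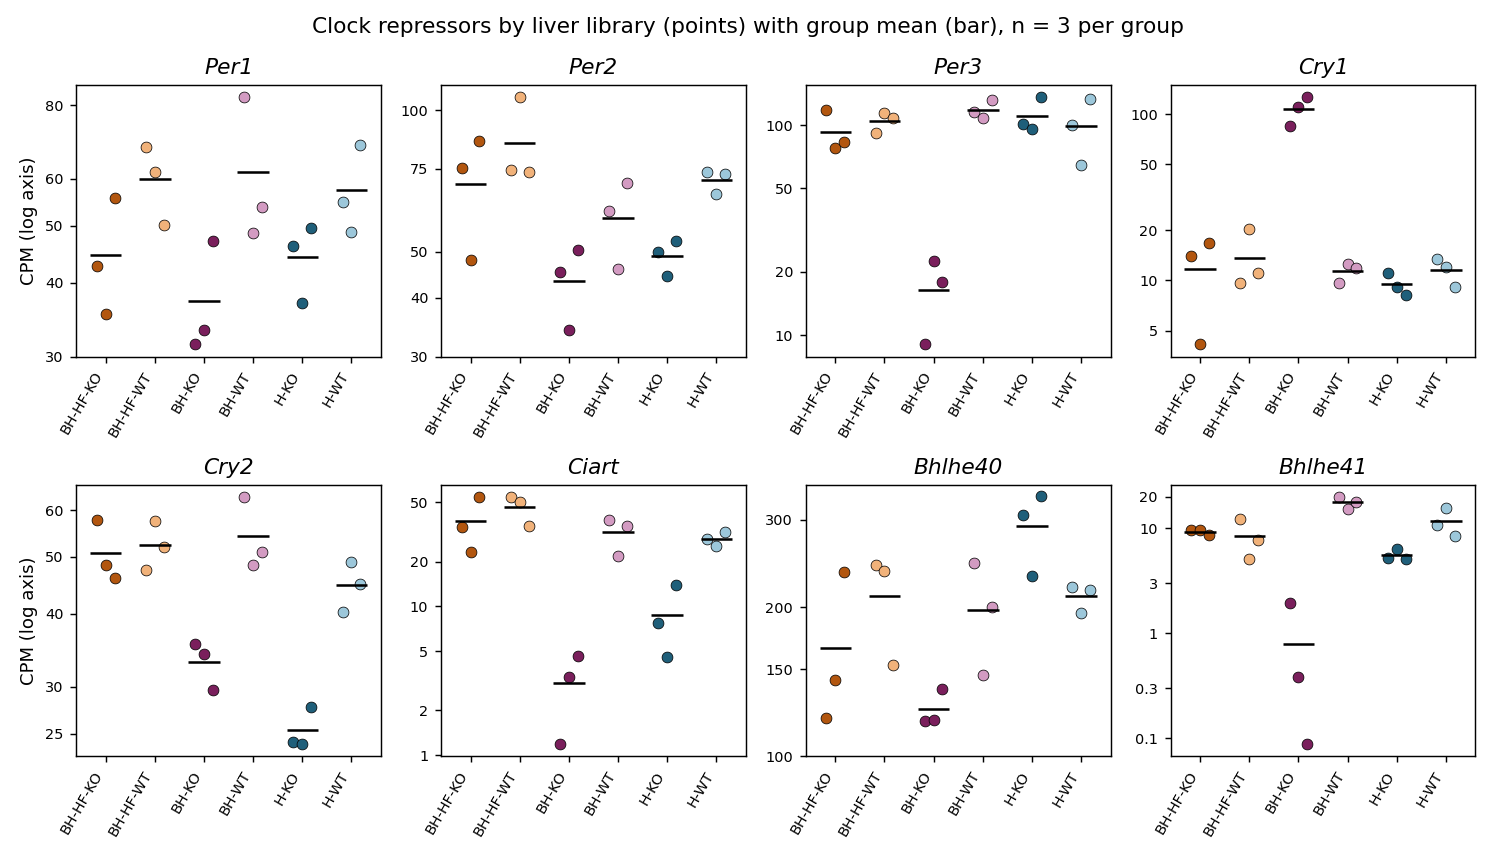
Level of each repressor (CPM, log axis) in every library, with bars at the group means of 3 libraries. In BH-KO, Per3 and Bhlhe41 lie below and Cry1 above every other library of the series, and in H-KO Cry2 lies below every other library.

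Per3 encodes the PERIOD protein that is least required for rhythm in mice, and its gene lies at chr4:151003652-151044665 on the minus strand (ENSMUSG00000028957). It was at 9.06, 22.5 and 17.9 CPM in BH-KO livers, against 116, 108 and 132 CPM in BH-WT livers. The BH-KO libraries were all far below the BH-WT libraries, with the lowest in replicate 1. The change was 7.11-fold downward (log2 fold change -2.83 ± 0.31 (SE), 95% interval -3.48 to -2.18, adjusted p = 2.47e-05 by edgeR).

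Per1 and Per2, the PERIOD genes that the clock depends on, differed less. Per1 (chr11:69095217-69109960, plus strand, ENSMUSG00000020893) was at 31.5, 33.3 and 47.2 CPM in BH-KO, against 82.5, 48.7 and 53.9 CPM in BH-WT. The groups did not overlap, but the highest BH-KO library and the lowest BH-WT library were close. Per1 fell by 0.72 ± 0.23 on the log2 scale (adjusted p = 0.0263 by edgeR), and this call depended on single libraries: it was lost without BH-KO replicate 1 (-0.62, adjusted p = 0.0621), without BH-KO replicate 2 (-0.64, adjusted p = 0.104) and without BH-WT replicate 1 (-0.45, adjusted p = 0.143). Fitted on the compared groups alone, its adjusted p was 0.112. Per2 (chr1:91415982-91459324, minus strand, ENSMUSG00000055866) was at 45.3, 34.2 and 50.6 CPM in BH-KO, against 61.0, 46.1 and 70.0 CPM in BH-WT. One BH-WT library lay inside the BH-KO range, and Per2 did not pass (log2 fold change -0.44 ± 0.21, 95% interval -0.89 to 0.01, adjusted p = 0.126 by edgeR).

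The cryptochromes, which bind the activators and repress them, moved in opposite directions in BH-KO. Cry1 (chr10:85131700-85185064, minus strand, ENSMUSG00000020038) encodes the stronger repressor of the pair. It was at 84.2, 111 and 126 CPM in BH-KO, against 9.68, 12.6 and 11.8 CPM in BH-WT. All BH-KO libraries were far above BH-WT, and above all the other 15 libraries, whose highest value was 20.5 CPM. Cry1 rose 9.40-fold (log2 fold change 3.23 ± 0.39, 95% interval 2.40 to 4.06, adjusted p = 6.88e-05 by edgeR) and was the only repressor called higher in this comparison. Cry2 (chr2:92403646-92434043, minus strand, ENSMUSG00000068742) was at 35.5, 34.1 and 29.6 CPM in BH-KO, against 63.1, 48.3 and 51.0 CPM in BH-WT. The groups were separate and each was narrow. Cry2 fell by 0.71 ± 0.13 on the log2 scale (adjusted p = 0.0011 by edgeR), a far smaller change than that of Cry1.

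Ciart (chr3:95878503-95882251, minus strand, ENSMUSG00000038550), whose promoter window held the 3 E-boxes, was at 1.19, 3.33 and 4.67 CPM in BH-KO, against 38.3, 21.9 and 34.8 CPM in BH-WT. The highest BH-KO library was well below the lowest BH-WT library. Ciart fell 9.79-fold (log2 fold change -3.29 ± 0.46, 95% interval -4.29 to -2.30, adjusted p = 0.000247 by edgeR).

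The E-box competitors BHLHE40 and BHLHE41 are related basic helix-loop-helix factors, and their transcripts differed in the size of change. Bhlhe41 (chr6:145858243-145865558, minus strand, ENSMUSG00000030256) was at 1.93, 0.380 and 0.0881 CPM in BH-KO, from 13, 4 and 1 counts, against 19.9, 15.3 and 17.9 CPM in BH-WT. All BH-KO libraries were below every other library of the series, where the lowest value was 5.07 CPM, and replicate 3 was below the floor. Bhlhe41 fell 25.8-fold (log2 fold change -4.69 ± 0.55, 95% interval -5.85 to -3.53, adjusted p = 4.01e-05 by edgeR), with a size set by very few BH-KO counts: without replicate 1 the log2 fold change was -6.18 (adjusted p = 9.78e-08) and without BH-KO replicate 3 it was -4.07. Bhlhe40 (chr6:108660629-108666925, plus strand, ENSMUSG00000030103) was at 118, 119 and 137 CPM in BH-KO, against 245, 146 and 200 CPM in BH-WT. The groups were separate but BH-WT was wide, and Bhlhe40 did not pass (log2 fold change -0.66 ± 0.25, adjusted p = 0.0543 by edgeR). It passed with DESeq2 (-0.67, adjusted p = 0.0346), without BH-WT replicate 2 (-0.84, adjusted p = 0.0316) and without any of 3 BH-HF libraries outside the comparison (BH-HF-KO replicates 1 and 3 and BH-HF-WT replicate 3, lowest adjusted p = 0.0272).

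Both genes are also expressed in immune cells. The summed level of 8 macrophage markers was 51.7 to 320 CPM in BH-KO and 249 to 1137 CPM in BH-WT. Of the 8, 5 were called lower, where 14.3% of all genes were, with none called higher and none at 0. Lymphocyte marker sums were 6.79 to 19.8 CPM in BH-KO and 15.4 to 55.5 CPM in BH-WT, and cholangiocyte marker sums 134 to 378 CPM in BH-KO and 55.0 to 96.6 CPM in BH-WT. The cholangiocyte markers were split. Spp1 averaged 184 CPM in BH-KO and 35.1 CPM in BH-WT, and Sox9 50.4 and 3.63 CPM. Krt19 (3.16 and 9.03 CPM), Krt7 (1.19 and 3.58 CPM) and Epcam (1.10 and 2.35 CPM) had lower means in BH-KO. The part of these cell types in the repressors' values was not tested. The exons of Bhlhe41 share 1280 bases (19.05%) with Gm43909 on the opposite strand, those of Cry2 share 295 bases (4.67%) with D930015M05Rik, and those of Bhlhe40 share 118 bases (2.51%) with 0610040F04Rik. The strand setting of the counting is unknown, so reads in those stretches cannot be told apart.

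Without BH-KO replicate 1, the calls of Per3 (log2 fold change -2.55), Cry1 (3.38), Cry2 (-0.77) and Ciart (-2.97) also remained, with adjusted p from 6.52e-06 to 0.000532 by edgeR. These 4 and Bhlhe41 passed under all 27 alternatives tried.

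**Figure D3:**
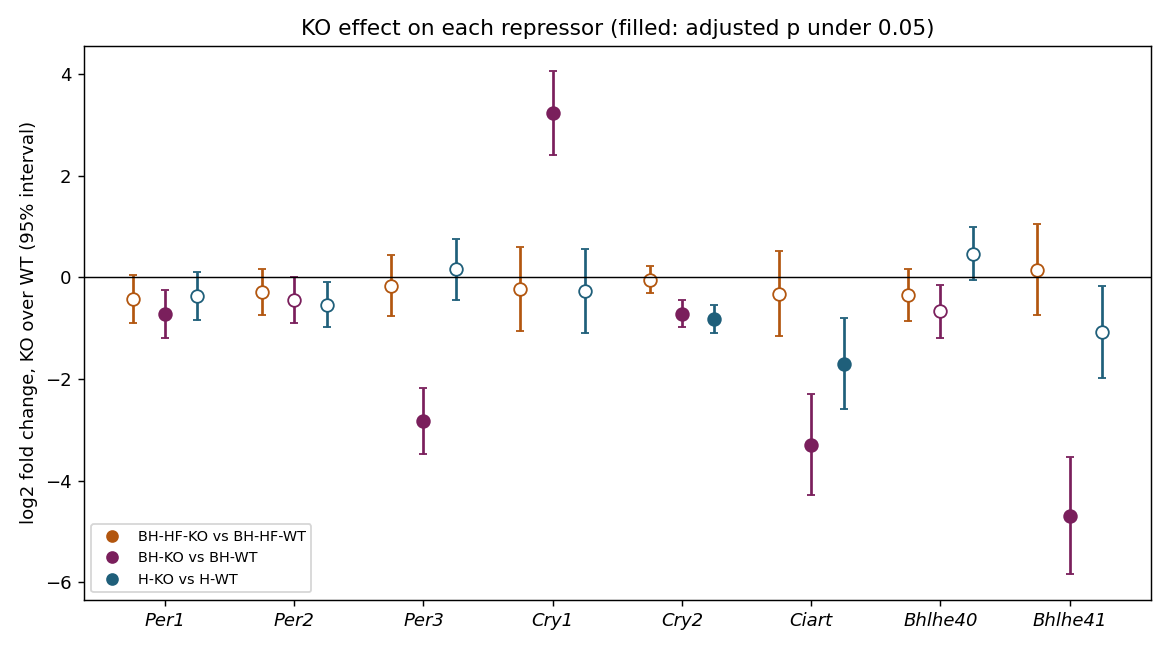
Log2 fold change of KO over WT for each repressor with its 95% interval, in BH-HF, BH and H, filled where the adjusted p was under 0.05. Cry1 stands above 3 and Bhlhe41 below -4 in BH-KO vs BH-WT, while the BH-HF intervals all include 0.

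The second comparison asked what the H knockout label alone was accompanied by. In H-KO livers 2 of the 8 repressors differed from H-WT, both lower, where 34.9% of all genes tested were called and 19.1% were called lower (2209 genes higher and 2662 lower; 3338 and 2063 with upper-quartile scaling). The libraries did not overlap for 5 of the 8, against 51.9% of all genes. The share of repressors called was thus no larger than that of all genes tested. The median log2 fold change of the 8 was -0.45, and over all genes tested it was -0.00.

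Cry2 was at 24.2, 24 and 27.8 CPM in H-KO, against 40.3, 49.0 and 44.8 CPM in H-WT. The H-KO libraries were the lowest of the series. Cry2 fell by 0.82 ± 0.13 on the log2 scale (95% interval -1.09 to -0.55, adjusted p = 0.00026 by edgeR).

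Ciart was at 7.73, 4.54 and 13.8 CPM in H-KO, against 28.2, 25.6 and 31.7 CPM in H-WT. H-WT was narrow and H-KO varied, with no overlap. Ciart fell by 1.70 ± 0.42 on the log2 scale (95% interval -2.60 to -0.81, adjusted p = 0.00613 by edgeR). Both calls held under all 27 alternatives, the one without the Xist-high H-WT library included.

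Bhlhe41, Per2 and Bhlhe40 had separate groups in H without passing. Bhlhe41 was at 5.22, 6.38 and 5.07 CPM in H-KO, against 10.8, 15.8 and 8.40 CPM in H-WT, a log2 fold change of -1.07 ± 0.42 (adjusted p = 0.0612 by edgeR). The H-KO libraries lay close together below H-WT. It passed with DESeq2 (adjusted p = 0.0237) and limma-voom (0.0211), without BH-KO replicate 1 (adjusted p = 0.0067) or BH-KO replicate 3 (adjusted p = 0.026), both outside the comparison, and in the fit of the compared groups alone (adjusted p = 0.00876).

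Per2 was at 50.1, 44.4 and 52.8 CPM in H-KO, against 74.1, 66.3 and 73.1 CPM in H-WT, a log2 fold change of -0.53 ± 0.21 (adjusted p = 0.0598 by edgeR). Its groups were narrow and clearly separate. It passed without BH-HF-KO replicate 2 or 3, BH-HF-WT replicate 2, BH-KO replicate 2 or BH-WT replicate 2, with adjusted p down to 0.0295, and in the compared groups alone (adjusted p = 0.00372). Bhlhe40 was at 307, 231 and 335 CPM in H-KO, against 220, 195 and 217 CPM in H-WT, a log2 fold change of 0.47 ± 0.25 (adjusted p = 0.152 by edgeR, and 0.0344 in the compared groups alone).

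The remaining 3 repressors overlapped between H-KO and H-WT. Per1 was at 37.0 to 49.5 CPM in H-KO and 48.8 to 68.5 CPM in H-WT, Per3 at 95.6 to 136 CPM in H-KO and 64.6 to 133 CPM in H-WT, and Cry1 at 8.19 to 11.1 CPM in H-KO and 9.11 to 13.4 CPM in H-WT. Per1 had a log2 fold change of -0.37 (95% interval -0.85 to 0.10, adjusted p = 0.214), Per3 of 0.16 (-0.44 to 0.76, adjusted p = 0.703) and Cry1 of -0.28 (-1.10 to 0.55, adjusted p = 0.624), by edgeR. The intervals of Per3 and Cry1 do not reach the sizes these genes had in BH-KO. Cholangiocyte marker sums were 136 to 201 CPM in H-KO and 49.6 to 74.1 CPM in H-WT, and macrophage marker sums were 137 to 220 CPM in H-KO and 61.4 to 480 CPM in H-WT.

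The difference between the knockout effects was tested as an interaction, BH minus H. It passed for 3 of the 8 repressors, where 6.06% of all genes tested passed: Per3 (-2.99 ± 0.41 on the log2 scale, adjusted p = 0.00136 by edgeR), Cry1 (3.51 ± 0.54, adjusted p = 0.00284) and Bhlhe41 (-3.62 ± 0.70, adjusted p = 0.00944). The size for Bhlhe41 was -5.10 without BH-KO replicate 1 and -2.99 without BH-KO replicate 3, and it passed in both. For Ciart the difference was -1.59 ± 0.62 (95% interval -2.91 to -0.27, adjusted p = 0.136) and did not pass. Bhlhe40, which was lower in BH-KO than BH-WT and higher in H-KO than H-WT, had a difference of -1.13 ± 0.35 (adjusted p = 0.0649), and it passed without BH-HF-KO replicate 3 (adjusted p = 0.0365) and with DESeq2 (0.0259). For Cry2 the interval of the difference was -0.28 to 0.49 (estimate 0.11, adjusted p = 0.761), for Per1 -1.02 to 0.32 (estimate -0.35) and for Per2 -0.54 to 0.72 (estimate 0.09).

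Set directly beside each other, BH-KO and H-KO livers differed in 4 of the 8 repressors, 1 higher and 3 lower in BH-KO, where 16.4% of all genes did, 10.1% higher and 6.3% lower. With upper-quartile scaling the split over all genes was 1076 higher and 1127 lower, against 1412 and 880 in the main scaling. Cry1 was higher in BH-KO (log2 fold change 3.49 ± 0.39, adjusted p = 8.08e-05 by edgeR). Per3 (-2.73 ± 0.30, adjusted p = 7e-05), Bhlhe41 (-3.02 ± 0.56, adjusted p = 0.00243) and Bhlhe40 (-1.23 ± 0.25, adjusted p = 0.00394) were lower. Bhlhe41 did not pass in the compared groups alone (adjusted p = 0.0673), and its log2 fold change was -4.51 without BH-KO replicate 1 and -2.39 without BH-KO replicate 3. Libraries did not overlap for these 4 and for Cry2, against 36.2% of all genes. Cry2 had a log2 fold change of 0.38 ± 0.13 (adjusted p = 0.0538), with lower H-KO libraries, and passed without BH-KO replicate 3 (adjusted p = 0.0376), BH-WT replicate 1 (0.039) or BH-HF-KO replicate 1 (0.0495). Ciart had -1.44 ± 0.47 (adjusted p = 0.0506) and passed with DESeq2 (0.00847), and without BH-KO replicate 3 (-1.85, adjusted p = 0.0374), H-KO replicate 2 (-1.74, adjusted p = 0.0331), or BH-HF-KO replicate 2 (0.0444) or 3 (0.042). The comparison shares its BH-KO and H-KO libraries with those above.

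In the 45-week-old high-fat-diet animals, none of the 8 repressors differed between the libraries labelled BH-HF-KO and BH-HF-WT, where 0% of the 13958 genes tested did by edgeR. DESeq2 and limma-voom also called 0 genes. At an unadjusted p under 0.05, edgeR called 490 genes (3.51%), none of them a repressor. Groups overlapped for all 8 repressors, against 10.4% of all genes whose groups were separate.

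Cry1 was at 14.02, 4.14 and 16.9 CPM in the libraries labelled BH-HF-KO, against 9.62, 20.5 and 11.02 CPM in BH-HF-WT. Per3 was at 118, 78.1 and 82.8 CPM in BH-HF-KO, against 91.5, 114 and 108 CPM in BH-HF-WT. Ciart was at 34.4, 23.2 and 54.3 CPM in BH-HF-KO, against 54.4, 50.7 and 34.6 CPM in BH-HF-WT. In each of these the groups were interleaved, and replicate 2 of BH-HF-KO was the lowest of its group. Bhlhe41 was at 9.74, 9.61 and 8.62 CPM in BH-HF-KO, against 12.3, 5.12 and 7.73 CPM in BH-HF-WT. The BH-HF-KO values were close together inside the wider BH-HF-WT range. Per1 ranged over 35.4 to 55.7 CPM in BH-HF-KO and 50.1 to 67.9 CPM in BH-HF-WT, Per2 over 48.0 to 86.0 CPM in BH-HF-KO and 73.9 to 107 CPM in BH-HF-WT. Cry2 ranged over 46.0 to 57.7 CPM in BH-HF-KO and 47.5 to 57.5 CPM in BH-HF-WT, and Bhlhe40 over 119 to 235 CPM in BH-HF-KO and 153 to 243 CPM in BH-HF-WT. The log2 fold changes of the 8 ran from -0.43 for Per1 (95% interval -0.90 to 0.05) to 0.15 for Bhlhe41 (-0.75 to 1.05), with the narrowest interval for Cry2 (-0.31 to 0.22).

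The knockout effect in BH-HF minus that in BH differed for 5 of the 8 repressors, where 6.1% of all genes passed. The differences were 4.84 ± 0.70 on the log2 scale for Bhlhe41 (adjusted p = 0.00114 by edgeR), -3.46 ± 0.54 for Cry1 (0.00244), 2.67 ± 0.41 for Per3 (0.00209), 2.97 ± 0.60 for Ciart (0.0118) and 0.67 ± 0.18 for Cry2 (0.0401). The Bhlhe41 difference was 6.33 without BH-KO replicate 1 and 4.22 without BH-KO replicate 3, and passed in both. The Cry2 call was lost in 14 of the 27 alternatives, 10 of them single libraries left out: BH-HF-KO replicate 1 or 2, BH-HF-WT replicate 1 or 3, BH-KO replicate 2 or 3, BH-WT replicate 1 or 3 and H-KO replicate 1 or 2 (adjusted p up to 0.11). Age, diet and time since tamoxifen changed together between BH and BH-HF and cannot be told apart. The Arntl level of the libraries labelled BH-HF-KO, given above, stands beside this difference and its part was not tested.

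The WT groups showed how the repressors varied without a knockout label. Between BH-WT and H-WT livers 0 of the 8 passed by edgeR, where 0.165% of all genes did, and 1, Cry2, had an unadjusted p under 0.05, as 9.32% of all genes did (log2 fold change 0.28, 95% interval 0.0047 to 0.55). DESeq2 and limma-voom also called no repressor, and no repressor's groups were separate, against 14.7% of all genes. Between BH-HF-WT and BH-WT livers 0 of the 8 passed, where 7% of all genes did, and 2 of the 8, Per2 and Bhlhe41, had an unadjusted p under 0.05, as 24.3% of all genes did. Their groups were separate, against 31% of all genes. Per2 was at 74.8, 107 and 73.9 CPM in BH-HF-WT, just above the BH-WT values (log2 fold change 0.53 ± 0.21, adjusted p = 0.134 by edgeR). Bhlhe41 in BH-HF-WT was below BH-WT (-1.08 ± 0.42, adjusted p = 0.124), and passed with limma-voom (-1.15, adjusted p = 0.0401) and without BH-KO replicate 1 (-1.07, adjusted p = 0.0212). DESeq2 called no repressor here. Macrophage marker sums were 60.7 to 246 CPM in BH-HF-WT and 249 to 1137 CPM in BH-WT.

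Over the 6 groups, the ratio of the highest to the lowest group mean was 22.2 for Bhlhe41, 15.2 for Ciart, 11.3 for Cry1 and 7.19 for Per3. It was 2.34 for Bhlhe40, 2.14 for Cry2, 1.96 for Per2 and 1.65 for Per1. BH-KO had the lowest mean for 6 of the 8 repressors, H-KO for Cry1 and Cry2. In the order of Cry1, the 5 groups below BH-KO (107 ± 21.2 CPM) ran from 13.7 ± 5.91 CPM in BH-HF-WT to 9.50 ± 1.50 CPM in H-KO (SD, n = 3 each), and neighbours in this order overlapped. For Per3, likewise, the 5 groups above BH-KO (16.5 ± 6.85 CPM) ran from 93.1 ± 22.1 CPM in BH-HF-KO to 119 ± 11.99 CPM in BH-WT, also with overlapping neighbours. Ciart averaged 3.06 ± 1.76 CPM in BH-KO and 8.70 ± 4.73 CPM in H-KO, with overlapping libraries, and 28.5 ± 3.06 CPM or more in the other groups. Cry2 had 33.1 ± 3.08 CPM in BH-KO and 25.3 ± 2.13 CPM in H-KO, against 44.7 ± 4.36 CPM or more elsewhere.

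Levels of different genes were compared per kilobase of exon (RPKM, computed here from CPM). Bhlhe40 was the highest of the 8 in 5 groups, from 35.2 ± 13.04 RPKM in BH-HF-KO upward, but in BH-KO Cry1 led, with 32.1 ± 6.35 RPKM against 26.4 ± 2.27 RPKM for Bhlhe40, a gap within their spread. Bhlhe41 was the lowest in every group, from 0.119 ± 0.147 RPKM in BH-KO to 2.64 ± 0.343 RPKM in BH-WT. Ciart ranked second in BH-WT (14.02 ± 3.81 RPKM) and seventh in BH-KO (1.35 ± 0.777 RPKM).

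The balance within each related pair was taken as a ratio of RPKM in each library. Cry1 over Cry2 was 4.49 to 8.06 in BH-KO and 0.290 to 0.495 in BH-WT. In H it was 0.558 to 0.872 in H-KO and 0.384 to 0.631 in H-WT, and in BH-HF it was 0.162 to 0.694 in BH-HF-KO and 0.384 to 0.675 in BH-HF-WT. BH-KO livers were thus the only ones with more Cry1 than Cry2 per length in each of their libraries, and no other library reached a ratio of 1. Per3 over Per2 was 0.122 to 0.401 in BH-KO and 1.15 to 1.43 in BH-WT, and 1.23 to 1.56 in H-KO and 0.594 to 1.10 in H-WT. The H groups were separate in that ratio, with H-KO above, while BH-KO was below all other libraries. In BH-HF that ratio was 0.587 to 0.990 in BH-HF-KO and 0.649 to 0.888 in BH-HF-WT, which overlapped. Bhlhe40 over Bhlhe41 was 87.2 to 2215 in BH-KO and 13.6 to 17.6 in BH-WT, and 51.8 to 94.5 in H-KO and 17.6 to 36.8 in H-WT. In BH-HF the groups overlapped, at 17.5 to 38.98 in BH-HF-KO and 28.1 to 66.0 in BH-HF-WT. The KO groups were above their WT groups in BH and in H, with the BH-KO values resting on 1 to 13 Bhlhe41 counts.

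**Figure D4:**
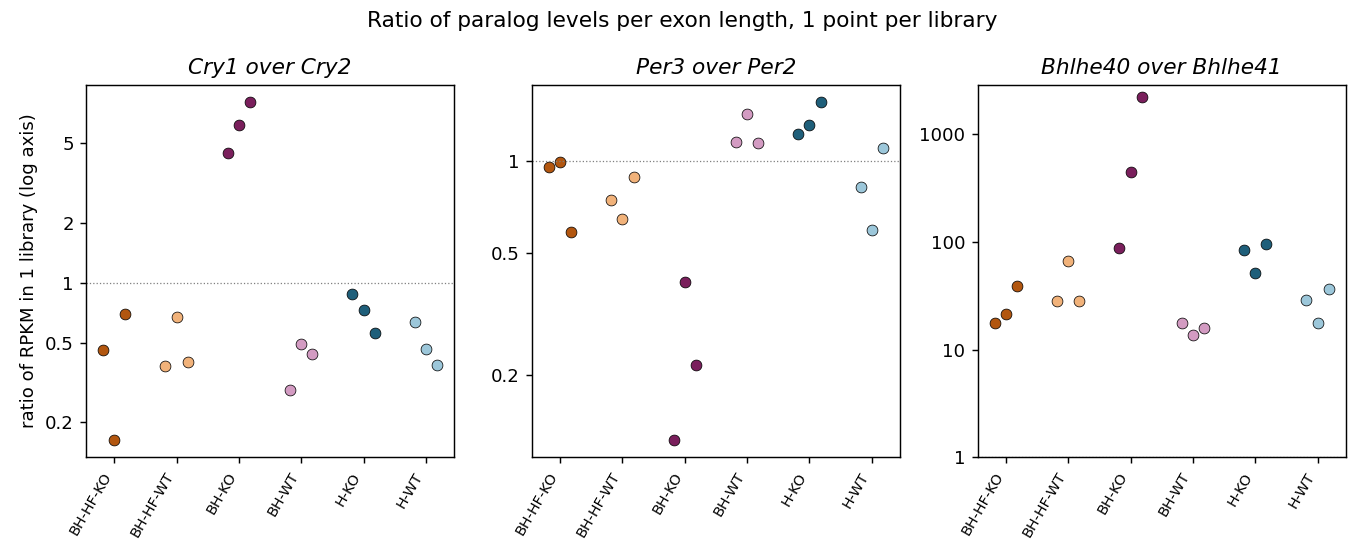
Ratio of RPKM within 3 related pairs, 1 point per library on a log axis, with a dotted line at 1. Cry1 over Cry2 is 4.49 or more in BH-KO and below 1 in the other 15 libraries, and Per3 over Per2 is lowest in BH-KO.

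Genes were ranked by how closely their profile followed that of each repressor, as Pearson's r of log2(CPM + 1) over the 18 libraries among 9389 genes with a mean of at least 5 CPM. The libraries share the group structure, so r is a description. Per3 was followed most closely by the D-box factor gene Dbp (r = 0.955), and Cry1 by Ppp1r3c (0.95), a glycogen-targeting phosphatase subunit, and by Npas2 (0.928). Npas2 averaged 42.0 CPM in BH-KO and no more than 0.849 CPM in any other group. It met the minimum of 5 CPM through BH-KO alone, so its r reflects the difference of that group from the others. Ciart was closest to Azin1 (0.955), the PAR bZIP gene Tef (0.951) and Cebpa (0.942), a hepatocyte transcription factor. Cry2 was closest to Nup210 (0.955), a nuclear pore gene, and Bhlhe41 to Jade1 (0.955). Bhlhe40 was closest to H2-Q6 (0.868), of a gene family with near-identical copies whose reads may be split, followed by the fatty acid synthesis genes Acly (0.862) and Fasn (0.827). Per2 was closest to Mipep (0.903), a mitochondrial peptidase, and Per1 had the weakest closest match, Usp22 (0.827), with the glucocorticoid-responsive Tat also near (0.821).

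The rest of the clock was read from lists of genes chosen by role. All 3 activator genes rose in BH-KO, where 14.3% of all genes were called higher. Npas2 was at 42.0 ± 5.15 CPM in BH-KO and 0.123 ± 0.212 CPM in BH-WT, where it had 3 counts in all, so no fold is given. Clock rose by 1.54 on the log2 scale (adjusted p = 8.25e-05 by edgeR), beside the rise of Arntl given above. In H-KO 0 of the 3 passed, where 34.9% of all genes were called. In the libraries labelled BH-HF-KO 0 of the 3 passed, where 0% of all genes did.

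REV-ERB and ROR receptor genes were read next. In BH-KO, Nr1d1 fell by 4.28 (adjusted p = 9.36e-07 by edgeR) and Nr1d2 fell by 2.88 on the log2 scale (adjusted p = 5.26e-08). In H-KO, Rora (log2 fold change -1.01, adjusted p = 0.00037) and Nr1d2 (-0.58, adjusted p = 0.00618) fell. Among 5 clock output factor genes, 1 rose and 3 fell in BH-KO, where 28.6% of all genes were called, led by Tef (log2 fold change -2.12, adjusted p = 6.52e-07), Dbp (-4.48, adjusted p = 8.98e-07) and Usp2 (-2.11, adjusted p = 0.000156). In H-KO, where 34.9% of all genes were called, 3 fell: Tef (-1.22, adjusted p = 5.23e-05), Usp2 (-2.18, adjusted p = 9.45e-05) and Hlf (-0.99, adjusted p = 0.00264). None of these receptor and output genes passed in the libraries labelled BH-HF-KO, where 0% of all genes did.

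**Figure D5:**
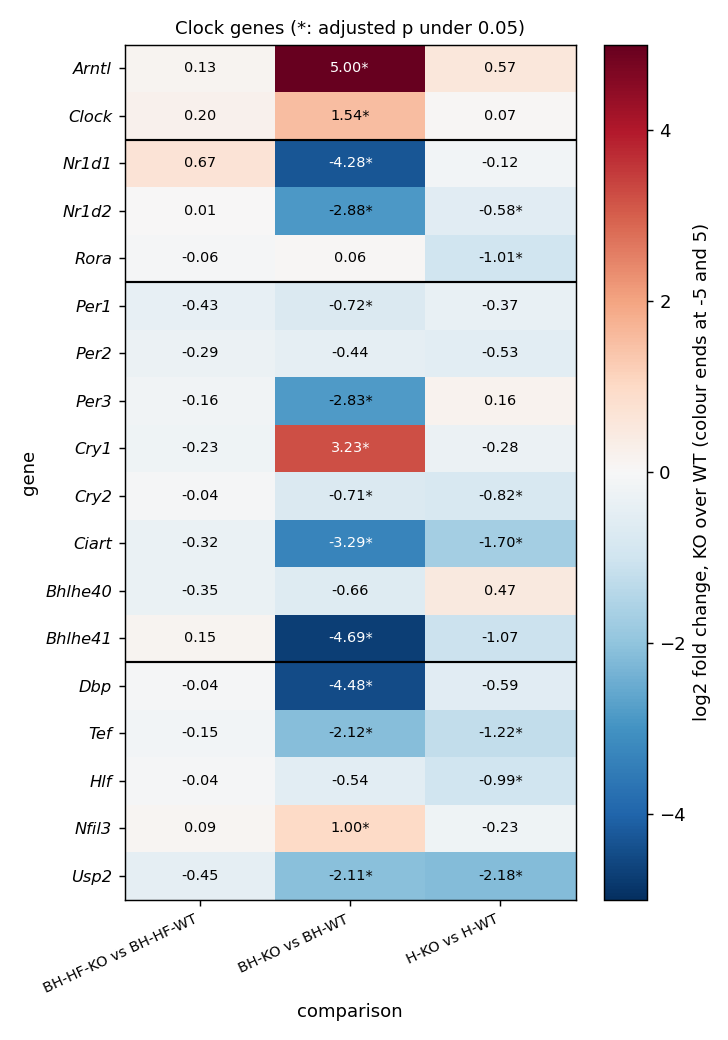
Log2 fold change of KO over WT for 18 clock genes in 3 comparisons, with an asterisk where the adjusted p was under 0.05. BH-KO has Arntl, Clock, Cry1 and Nfil3 higher and most other clock genes lower, and the BH-HF column has no asterisk.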

How the data were processed

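The authors deposited whole-number counts of reads per gene for 18 liver libraries. STAR 2.6 and the mouse build mm10 are named per the submitters' processing notes, while the read counter, the annotation, the library kit and the strand setting are not stated. The counts were analysed with edgeR 4.0.16 in R 4.3.3. Library sizes were scaled by TMM, genes were kept by filterByExpr (minimum count 10), and a model with 1 mean for each group was fitted over all 18 libraries (12 residual degrees of freedom, shared spread). Each of 8 contrasts was tested by the robust quasi-likelihood test, with Benjamini-Hochberg adjustment over 13958 genes and calls at an adjusted p under 0.05. Standard errors are the fold change over the square root of F. p-values rest on the spread between livers within groups, estimated over all 6 groups of 3 and not in the compared groups alone. Replicate libraries differed by more than sampling noise. RPKM used exon lengths of GENCODE M21, in which 52489 of 52636 gene IDs were found.

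The members and gene lists were chosen with earlier results of these data known. All 8 members are described. From each clock list, up to 3 genes that passed with the smallest adjusted p are named, and for likeness up to 3 genes with the highest r. Floors cover counting error only. Some genes of the clock and marker lists are not reported here. Scripts were tested on simulated counts. Alternatives were DESeq2 1.42.0, limma-voom (limma 3.58.1), upper-quartile scaling, other filters, the compared groups alone, a replicate block, and leaving out each library and a pair of libraries. For clock genes outside the members these were added after seeing the data.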

Additional observations from a re-analysis of the deposited data

Results flagged for a closer look

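The following 8 values were singled out because the knockout effect on a repressor differed between settings by a test of the difference itself (edgeR interaction term, adjusted p under 0.05 over 13958 genes). Between BH and H, the effect differed by -2.99 on the log2 scale for Per3, by 3.51 for Cry1 and by -3.62 for Bhlhe41. Between BH-HF and BH, it differed by 2.67 for Per3, by -3.46 for Cry1, by 0.67 for Cry2, by 2.97 for Ciart and by 4.84 for Bhlhe41. The BH-KO and BH-WT livers enter both contrasts, so the 2 sets of values are not independent of each other. With 3 livers per group no formal test for outlying samples was made, but each library was left out in turn. The Cry2 call was lost in 14 of the 27 alternatives, and the other flagged calls held in all 27.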

How the results depend on the processing

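Of 1728 values of the 8 repressors under the 27 alternatives, 1647 stayed on their side of the threshold with the same sign, 21 lost a call, 35 gained one and 25 changed sign. The sign changes were all uncalled values with a library left out, and the cause was not tested. With a library left out, the log2 fold change of Per3 in H-KO vs H-WT ranged from -0.078 to 0.42. In BH-HF-KO vs BH-HF-WT, Cry1 ranged from -0.61 to 0.19, Cry2 from -0.14 to 0.029, Bhlhe41 from -0.11 to 0.54 and Arntl from -0.35 to 0.41. The BH minus H difference of Per2 ranged from -0.060 to 0.24, and the BH-HF minus BH difference from -0.020 to 0.37 for Per2 and from -0.020 to 0.51 for Bhlhe40. In BH-WT vs H-WT, Per1 ranged from -0.16 to 0.25, Cry1 from -0.16 to 0.11, Ciart from -0.0099 to 0.36 and Bhlhe40 from -0.29 to 0.082. In BH-HF-WT vs BH-WT, Per1 ranged from -0.19 to 0.23, Cry1 from -0.14 to 0.47, Cry2 from -0.13 to 0.078 and Bhlhe40 from -0.080 to 0.29.

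For BH-KO vs BH-WT the number of genes called moved more than the number of repressors called, and for H-KO vs H-WT it moved less. Fitted on the compared groups alone, the number of genes called was 1096 for BH-KO vs BH-WT (3990 in all groups), 919 for BH-KO vs H-KO (2292), 498 for BH minus H (846) and 431 for BH-HF minus BH (851). For H-KO vs H-WT it was 5119 (4871 in all groups). There 5 of the 8 repressors passed, 1 higher and 4 lower, against 2 in all groups. The reason for these shifts was not tested. DESeq2 called 1394 genes for BH minus H, 1315 for BH-HF minus BH, 101 for BH-WT vs H-WT (23 by edgeR) and 1495 for BH-HF-WT vs BH-WT (977). With no filter on low counts, 516 genes passed for BH minus H and 35 for BH-WT vs H-WT, where limma-voom called 12. Leaving out BH-KO replicate 1 and H-WT replicate 3 together gave 6198 genes for BH-KO vs BH-WT, 3327 for BH-HF minus BH, 62 for BH-WT vs H-WT and 2118 for BH-HF-WT vs BH-WT. In BH-HF-WT vs BH-WT, 1 repressor, Bhlhe41, passed with limma-voom and without that pair. With single libraries left out, genes called ranged from 2330 (without BH-KO replicate 2) to 5916 (without BH-KO replicate 1) for BH-KO vs BH-WT, 0 to 1 for BH-HF-KO vs BH-HF-WT, 344 to 1247 for BH minus H, 353 to 3046 for BH-HF minus BH, 1191 to 2458 for BH-KO vs H-KO, 7 to 57 for BH-WT vs H-WT and 225 to 1778 for BH-HF-WT vs BH-WT, with 0 to 1 repressors there.

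Equal replicate numbers did not mark paired samples: 4 of 45 same-numbered pairs had correlated deviations over 0.1, and 13 of 90 others did. With the replicate block 3665 genes passed for BH-KO vs BH-WT, 4649 for H-KO vs H-WT and 14 for BH-WT vs H-WT. With that block, Per2 in H-KO vs H-WT (adjusted p = 0.0469) and Ciart in BH-KO vs H-KO (0.0447) passed, and Cry2 in BH-HF minus BH did not (0.062). Upper-quartile scaling moved the median of all genes by 0.154 in H-KO vs H-WT, and split the calls into 427 higher and 395 lower for BH minus H (525 and 321 by TMM) and 430 and 549 for BH-HF minus BH (481 and 370). Depth limits Bhlhe41 and Ciart most, with as few as 1 and 8 counts in a library.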

Other observations

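The enzymes that modify PER and CRY proteins or mark them for degradation were read as a list of 17 genes, all tested. In BH-KO livers 2 rose and 1 fell relative to BH-WT, a smaller share than the 28.6% of all genes called: the kinase gene Csnk1d (log2 fold change 0.45, adjusted p = 0.0145 by edgeR) and the ubiquitin ligase gene Btrc (0.55, adjusted p = 0.0209), which act on PER proteins, rose, and Ddb1 (-0.33, adjusted p = 0.0256) fell. Each of these calls was lost under some alternatives, and 0 genes passed when BH-KO replicate 2 or replicate 3 was left out, 5 when BH-KO replicate 1 was, 1 when BH-WT replicate 2 was, and 0 in the compared groups alone. In H-KO livers 3 rose and 4 fell relative to H-WT, where 34.9% of all genes were called. Fbxl21, a ligase gene for CRY proteins, fell by 1.93 on the log2 scale (adjusted p = 5.88e-05), Prkaa1, an AMPK subunit gene, fell by 0.57 (adjusted p = 0.00821) and Btrc rose by 0.63 (adjusted p = 0.00758). The count of 7 was 4 without any single H-KO library. Over all genes tested, 3787 were called without H-KO replicate 1, against 4871 with all libraries. In the libraries labelled BH-HF-KO 0 of the 17 passed by edgeR, where 0% of all genes did.

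Of 8 genes for partners in the PER-CRY complex, Sfpq rose in BH-KO (0.83, adjusted p = 0.000254 by edgeR) and Wdr5 fell in H-KO (-0.40, adjusted p = 0.0094), where 28.6% of all genes were called in BH-KO and 34.9% in H-KO. Without BH-KO replicate 1, 3 of the 8 passed in each comparison, and the calls over all 13958 genes were then also more, 5916 in BH-KO and 5631 in H-KO. With upper-quartile scaling, Wdr5 did not pass (-0.25, adjusted p = 0.0957). None of the 8 passed in the libraries labelled BH-HF-KO, where 0% of all genes did.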
